A study of Rattus norvegicus with 36 samples.

Results

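The 6 vehicle livers of a rat gavage study were described as a baseline: which transcripts gave the brightest signal, which differed most and least between the 6 animals, and which genes moved together from animal to animal. The members are the 6 of 36 arrays labelled vehicle, with the array control probe sets left out, and they hold values for 14217 named genes. All animals were male Harlan Sprague Dawley rats, 7 weeks old at the start and fed the NTP-2000 diet. The vehicle animals received corn oil alone (0 mg/kg, 5 ml/kg) by gavage on 5 days, and their left liver lobe was taken 1 day after the last dose. The other 30 animals received the flame retardant tetrabromobisphenol A-bis(2,3-dibromopropyl ether) in corn oil at 5 levels from 0.1 to 943 mg/kg, with 6 animals per dose. They were used here for the spread and correlations within their own groups, to compare arrays and to choose probe sets. Their range over all doses is drawn in a figure, and no dose was compared with vehicle.

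The animals are called 1 to 6 after their replicate numbers, which give no order. Each animal gave 1 array, so differences between animals cannot be told apart from differences between dissections, RNA preparations or hybridisations. The only p values compare the spread between the vehicle animals with the spread within the dosed groups, and they carry this limit too. The liver is made mostly of hepatocytes, which secrete the plasma proteins, take up and break down nutrients and drugs, and make bile acids and cholesterol. Kupffer cells (resident macrophages), sinusoidal endothelium, stellate cells and lymphocytes make up most of the rest. Several hepatocyte programmes are known to shift within hours with feeding, the clock, pulses of growth hormone and handling, and interferon-stimulated genes respond to signals from the immune system.

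Values are log2 signals, on which a difference of 1 is a 2-fold difference, and each gene is read by 1 probe set. The array medians lay between 4.60 and 4.63. Animal 1 stood apart: its correlations with the other 5 vehicle arrays were between 0.9916 and 0.9922, against 0.9929 to 0.9958 for the other pairs, and its median correlation with the other 35 arrays was the lowest of all 36. The first principal component of the 6 animals held 32.0% of the variance and placed animals 1 and 5 on one side and the other 4 on the other. The second held 25.3% and placed animals 1 and 5 at opposite ends.

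Over the 14217 genes the SD between the 6 vehicle animals had a median of 0.133, a spread of 1.10-fold, and 95% of genes had an SD of at most 0.314. A range of 2-fold or more between the highest and the lowest animal was found for 454 genes, 3.19% of those measured, one of 4-fold or more for 48, and one of 8-fold or more for 12. The 2-fold ranges depended on animals 1 and 5 more than on others: animal 5 was the highest or the lowest in 48.2% of the 454 genes and animal 1 in 42.5%, against 17.8% for animal 4. Without animal 1 the count was 332 and the median SD 0.119, and without animal 5 the count was 327. The median SD in the 5 dosed groups, calculated in the same way, lay between 0.126 and 0.131.

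The brightest signals came from secreted hepatocyte proteins. Albumin (Alb), the main plasma carrier protein, ranked first with 14.40 ± 0.01 (mean ± SD, n = 6), followed by transthyretin (Ttr), the thyroid hormone carrier, with 13.93 ± 0.03 and apolipoprotein C-III (Apoc3), a regulator of triglyceride clearance, with 13.90 ± 0.03. The vitamin D-binding protein Gc, the protease inhibitor Serpina1, the mitochondrial cytochrome c oxidase subunit COX2, Apoe, fibrinogen gamma (Fgg), haptoglobin (Hp) and Apoh filled ranks 4 to 10. Complement C3 (rank 13), the fatty acid-binding protein Fabp1 (rank 17), carbonic anhydrase 3 (Car3, rank 18), the detoxifying enzyme Mgst1 (rank 21) and the steroid hydroxylase Cyp3a2 (rank 25) were also among the first 30. Ranks order probe set signals, and because probe sets differ in affinity a rank is no measure of transcript number.

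Largely the same genes were brightest in every animal: 27 genes were among the first 30 in each of the 6 livers, and 82 were among the first 100 in each. Of the 13 measured hepatocyte markers, 11 were in the top 1% of all genes. All 17 apolipoproteins and lipoprotein assembly genes were in the top 5%, as were 27 of 31 genes of complement and coagulation. Male-specific cytochromes P450 that growth hormone pulses maintain in the rat were bright as well, with Cyp2c11 at 13.08 ± 0.08 and Cyp2c13 at 13.08 ± 0.05. Markers of other liver cells lay lower, the Kupffer cell markers at a median of 8.62, the endothelial markers at 7.23, the stellate cell and fibroblast markers at 6.01 and the lymphocyte markers at 4.49. The median probe set on the arrays read 4.61.

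Tissue other than liver was looked for with lists of its markers. Of 17 measured genes of pancreatic acini, 15 lay below the median probe set, and the other two were Cela1, an elastase, with 9.63 and Cpb1, a carboxypeptidase, with 5.09. Of 18 genes of adipose tissue and muscle, 14 lay below it, and Myh1, a myosin heavy chain, had a probe set at 10.89 ± 0.13. Whether the Cela1 and Myh1 probe sets read those genes in liver was not tested. Of 14 neutrophil genes, 11 were below the median. The level of these lists, the mean over their members, had an SD between animals of 0.01 for pancreatic acini, 0.07 for adipose tissue and muscle and 0.13 for neutrophils.

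**Figure D1:**
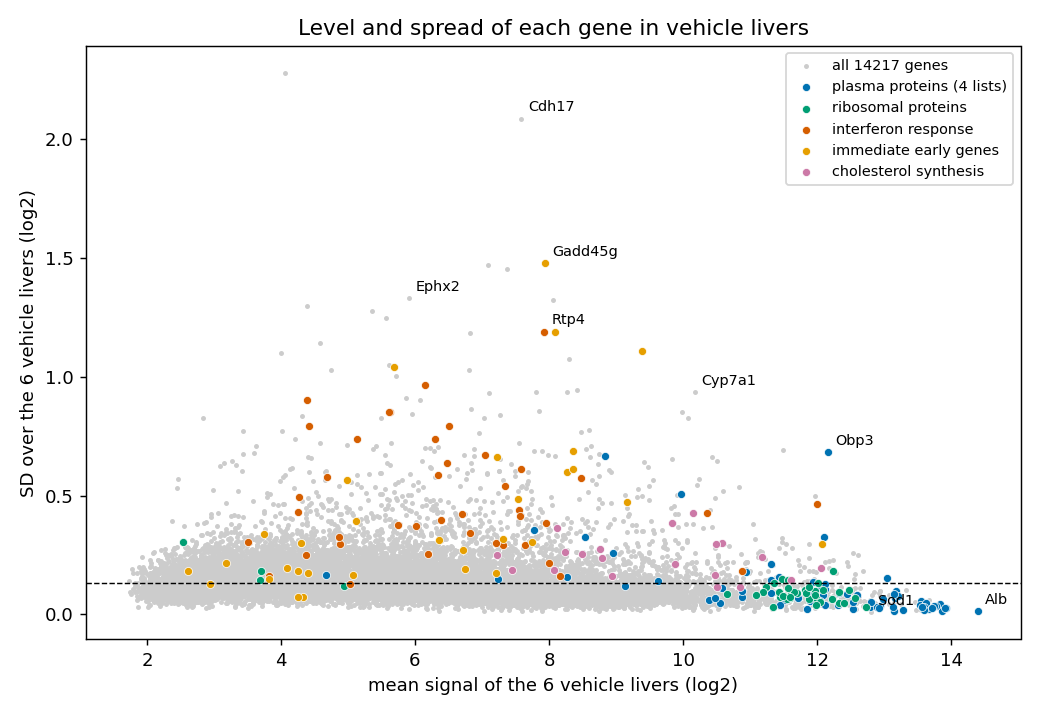
Each point is a gene, with the mean log2 signal over the 6 vehicle animals on the x axis and the SD between them (log2) on the y axis. At the bright end the spread is narrow: the median SD is 0.100 in the brightest 25% of genes and 0.0625 in the brightest 1%, against 0.133 over all genes.

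The genes that differed least between animals were bright ones. Among genes whose mean lay in the upper 25% of the probe sets, superoxide dismutase 1 (Sod1), which removes superoxide, had the smallest SD, with values from 12.80 to 12.82 and an SD of 0.009. Vitronectin (Vtn, SD 0.013), Alb (0.013), Gc (0.014) and antithrombin (Serpinc1, 0.017) followed among secreted proteins, and Pcnp, Otud5, Polr2l, a shared subunit of RNA polymerases, and Gcsh, a part of the glycine cleavage system, lay between 0.015 and 0.016. These SDs belong to the brightest probe set of each gene. A second probe set above the median one had 0.10 for Gc and 0.071 for Pcnp, and 0.013 for Alb. The median SD was 0.061 in complement and coagulation, 0.058 in oxidative phosphorylation and 0.074 in the proteasome, and 0 of their 31, 66 and 30 measured genes had a 2-fold range, where 3.19% of all genes had one, so that these counts alone say little. By quartile of mean, from dim to bright, the median SD was 0.146, 0.155, 0.129 and 0.100, and 58, 141, 133 and 122 genes had a 2-fold range. The part that a compressed upper end of the array scale has in the narrow spread of the brightest genes was not tested.

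Genes often used as references for normalisation were stable here with 1 exception, as read by the brightest probe set of each. The 20 measured ones had a median SD of 0.081 and none had a 2-fold range, where 3.19% of all genes had one. The ATP synthase subunit Atp5f1b (SD 0.023) and the ribosomal stalk protein Rplp0 (0.041) were the steadiest, and Hprt1, Ywhaz and Tbp lay between 0.076 and 0.084. B2m had 0.10, and 0.19 in a second probe set with a mean of 10.82. The transferrin receptor Tfrc had the largest SD, 0.32, with values from 7.29 in animal 6 to 8.23 in animal 5. Among the 14 enzymes that are measured in serum as signs of liver injury, only alanine aminotransferase Gpt had a 2-fold range, against 3.19% of all genes. It was at 7.57 in animal 5 and at 8.31 to 9.37 in the other 5. Animal 5 was the lowest in 18.4% of all genes. Aspartate aminotransferase Got2 spanned 11.51 to 11.56.

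At the other end stood 25 genes with the largest SDs among those at or above the median probe set. Cadherin 17 (Cdh17), an adhesion protein best known from the intestine, read 9.26, 5.12, 8.57, 9.43, 4.76 and 8.32, a range of 25.4-fold. Animals 2 and 5 were low and the other 4 high, with no value between 5.12 and 8.32. Ubd, a ubiquitin-like protein induced by interferon gamma and TNF, read 5.84, 8.36, 7.80, 8.01, 7.84 and 4.70, with animals 1 and 6 low. Onecut1, a liver transcription factor also called HNF6 that growth hormone induces, read 9.13, 9.07, 8.78, 8.65, 6.38 and 6.35, with animals 5 and 6 low. Resp18, a secretory granule protein, was at 3.74 and 3.77 in animals 4 and 6 and at 5.84 to 6.68 in the others. These 4 belong to 18 genes of the upper 50% of probe sets whose values split into 2 sets of at least 2 animals with a gap of 1 log2 or more. In 7 of the 18, among them Rtp4, Usp18 and Irf9, the low set was animals 1 and 5.

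Single animals set other large SDs. Ephx2, the soluble epoxide hydrolase, was at 8.57 in animal 1 and between 5.02 and 5.59 in the other 5, and its SD of 1.33 was 0.28 without animal 1. Ccn2, a matricellular growth factor, was at 7.74 in animal 5 and between 4.88 and 5.58 in the others, with an SD of 1.04 that was 0.32 without animal 5. Zfp354a, a zinc finger protein, was highest in animal 5 (10.06, against 6.32 to 8.01), and its SD was 0.70 without it. The sulfotransferase Sult2a6 was at 5.71 in animal 3 and at 7.52 to 8.95 elsewhere, with an SD of 0.53 without animal 3. Leaving out 1 animal also lowered the SD by over 1.5 times for Dusp1 (0.58 without animal 3), Pcp4l1 (0.60 without animal 4), Cyp3a9 (0.58 without animal 5) and Cdkn3 (0.69 without animal 6).

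For other genes of the 25 leaving out any 1 animal lowered the SD by less than 1.5 times. Cyp7a1, which starts and paces the making of bile acids from cholesterol, read 10.65, 10.05, 11.20, 8.82, 10.94 and 9.36, a range of 5.20-fold. Gadd45g, a growth arrest and stress gene, spanned 5.68 to 9.59, and the immediate early transcription factor Egr1 spanned 6.43 to 9.76. Cish, an inhibitor of growth hormone signalling, spanned 5.20 in animal 3 to 8.01 in animal 1. Mfsd2a, a lipid transporter, spanned 5.98 to 8.63, and Tsku, a secreted protein of lipid metabolism, spanned 7.09 to 9.31. Where a second probe set of the gene lay above the median probe set it followed the first over the 6 animals, with r = 0.99 for Onecut1 and for Dusp1 and 0.98 for Cish and for Pcp4l1.

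The widest gene of all was dim. Abhd3, a phospholipase, has a mean of 4.06, under the median probe set, and was singled out after its values were seen. It read 7.11 and 6.89 in animals 3 and 4 and 2.46 to 2.73 in the other 4, an SD of 2.28. RT1-Bb, a class II histocompatibility gene, was likewise split, at 6.17 and 5.93 in animals 2 and 5 and at 3.42 to 3.79 in the others. A second, dim RT1-Bb probe set, with a mean of 3.83, did not show this split. It spanned 3.31 to 4.06 and had r = 0.11 with the first.

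**Figure D2:**
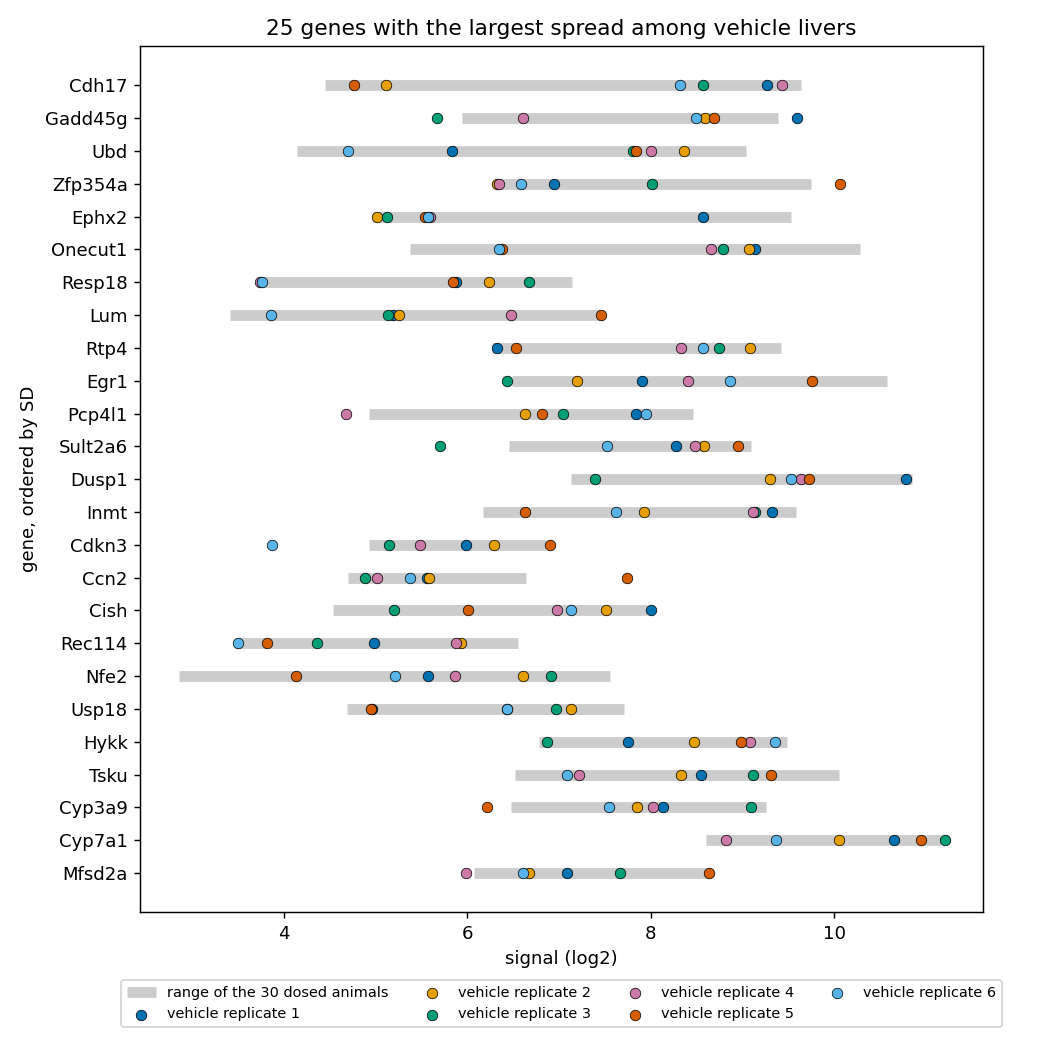
For the 25 genes with the largest SD, each point is the log2 signal of 1 vehicle animal, coloured by replicate number. Genes are on the y axis in order of SD, and grey bars span the 30 dosed animals over all doses. Cdh17 and Onecut1 split into 2 separated sets of animals, whereas for Ephx2 animal 1 alone stands at 8.57 and the other 5 lie between 5.02 and 5.59.

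The dosed animals showed whether wide genes were wide elsewhere. Over all genes the SD in vehicle and the SD within dosed groups had a Spearman correlation of 0.59, and 194 of the 300 genes with the largest SDs in one were among the 300 of the other (64.7% of each list), among genes at or above the median probe set. All 25 widest vehicle genes lay at or above percentile 98.5 of the SD within dosed groups. These values describe genes, which are not independent replicates.

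The spread itself was tested on 31042 probe sets, comparing the absolute deviations of the 6 vehicle animals from their mean with those in the 5 dosed groups (limma, Benjamini-Hochberg). Vehicle was wider for 14 probe sets, 0.0451% of those tested, and narrower for 0 (0%), with 1905 wider and 682 narrower at an unadjusted p under 0.05. Without animal 1 these were 1215 and 847, and 11 probe sets were called. The 4 called probe sets that name a gene were Zxdc (adjusted p = 0.0021), a zinc finger cofactor of class II histocompatibility transcription, the cytokine subunit Il23a (0.013), the inositol transporter Slc5a11 (0.027) and Tmcc1 (0.030). Their vehicle SDs were modest, 0.24, 0.30, 0.21 and 0.35, and the 25 widest genes were not among the 14. In alternatives of the test that used all 6 vehicle animals, 3 to 74 probe sets were called. Leaving out animal 2, 3, 4 or 6 gave 82, 67, 88 or 53.

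The clearest programme that differed between animals was the interferon response. Interferons switch on a shared set of antiviral genes, many of which carry a short shared element in their promoters. Of 41 measured genes of this list, 23 had a 2-fold range, against 3.19% of all genes, and their median SD was 0.43, against 0.133 over all genes. The list level, the mean log2 signal of its members, was 5.95, 7.02, 6.89, 6.57, 6.04 and 6.70 in animals 1 to 6. Animals 1 and 5 were low, animals 2 and 3 high: animal 1 was the lowest in 27 of the 41 genes, against 19.9% of all genes, and animal 2 the highest in 25, against 12.2%.

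Rtp4, a chaperone of receptor transport, read 6.32, 9.08, 8.74, 8.33, 6.54 and 8.57. Usp18, which removes the ubiquitin-like modifier ISG15 and dampens the response, read 4.96, 7.13, 6.97, 6.43, 4.96 and 6.44, and Isg15 itself spanned 5.69 to 7.24. Irf9, a transcription factor of the response, was at or below 5.52 in animals 1 and 5 and at 6.82 to 7.21 in the other 4. It is among the genes named above for a gap of 1 log2 or more, so that this separation was given by the choice. The antiviral GTPases Mx1 and Mx2 spanned 3.23 to 5.20 and 4.38 to 6.52. The brighter members Bst2, which tethers virus particles to the cell, and Ifi27 spanned 9.73 to 10.75 and 11.38 to 12.36, each with animals 1 and 5 lowest. Ifit1 was an exception, with 4.78 to 5.13 and an SD of 0.13.

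Over all pairs of the 41 genes the median Pearson r across the 6 animals was 0.82 (Spearman 0.83), against 0.0065 over all pairs of the 14217 genes. In the 30 dosed animals, as deviations from their group means, it was 0.74. Leaving out any 1 vehicle animal gave 0.80 to 0.86, and 0.84 without animal 1. These correlations describe 6 arrays that share their normalisation and carry no p.

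Promoters of genes that varied with this programme are shown because a sequence fixed in the genome can be set beside the values. The windows are the 250 bases before the start of transcription from RefSeq (build GRCr8), 5′ to 3′, and capitals mark matches to GAAANNGAA on either strand, part of the interferon-stimulated response element. Ifi44l (chr2:243328473-243328722, plus strand) has 2 matches, RT1-S3, a class I histocompatibility gene (chr20:2675278-2675527, plus strand), has 1, and Gzma, which encodes the cytotoxic granule protease granzyme A (chr2:46485697-46485946, minus strand), has 2.
Ifi44l: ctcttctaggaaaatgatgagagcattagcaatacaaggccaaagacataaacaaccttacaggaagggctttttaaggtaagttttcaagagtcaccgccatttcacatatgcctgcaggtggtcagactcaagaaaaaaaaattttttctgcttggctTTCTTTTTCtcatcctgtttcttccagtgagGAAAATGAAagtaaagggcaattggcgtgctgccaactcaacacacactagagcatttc
RT1-S3: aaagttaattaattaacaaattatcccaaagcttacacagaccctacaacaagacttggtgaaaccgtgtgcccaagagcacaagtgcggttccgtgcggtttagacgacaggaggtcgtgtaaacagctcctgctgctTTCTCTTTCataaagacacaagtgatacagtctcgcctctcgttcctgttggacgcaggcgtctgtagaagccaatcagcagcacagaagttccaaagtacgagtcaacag
Gzma: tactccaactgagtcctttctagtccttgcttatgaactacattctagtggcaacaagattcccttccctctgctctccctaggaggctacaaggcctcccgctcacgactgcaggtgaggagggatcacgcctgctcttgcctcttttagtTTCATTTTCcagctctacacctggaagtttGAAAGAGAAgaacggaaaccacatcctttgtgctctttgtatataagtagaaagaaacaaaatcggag

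These 3 genes were chosen for holding the element and for belonging to the largest cluster described below, which was formed from these same 6 values. That their values follow the programme was therefore given by the choice. RT1-S3 is on the list of antigen presentation and Gzma on that of lymphocytes. Wider genes of the cluster, such as Rtp4 (SD 1.19) and Usp18 (0.96), have no match in these 250 bases or no promoter in the table. Ifi44l read 4.53, 6.77, 5.88, 5.79, 4.72 and 6.10, RT1-S3 read 8.57, 9.87, 9.91, 9.74, 8.62 and 9.79, and Gzma read 4.21, 5.76, 5.09, 5.16, 4.62 and 5.44. Animals 1 and 5 were the lowest in all 3. Over windows of 300 bases, from 250 before to 50 after the start, the element was found in 22 of the 32 interferon genes with a promoter in the table (68.8%) and in 7.19% of the 11700 measured genes with one. A match is a description of letters and not of a bound site.

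In the list of antigen presentation animal 1 was the lowest in 16 of 23 measured genes, against 19.9% of all genes. Animal 2 was the highest in 18, against 12.2%. Of the 23, 10 had a 2-fold range, against 3.19% of all genes. The median r of the list was 0.60 in vehicle and 0.58 in the dosed animals. The immunoproteasome subunit Psmb8 spanned 7.80 in animal 1 to 9.47 in animal 2, and RT1-CE10 spanned 6.80 to 8.32 in the same animals. B2m, the light chain of class I molecules, was bright and spanned 13.20 to 13.43, with animals 1 and 5 lowest. A second B2m probe set, with a mean of 10.82, spanned 10.52 to 11.02 with the same animals lowest.

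Of the 16 measured Kupffer cell markers, 9 were lowest in animal 1, against 19.9% of all genes, and 5 in animal 5, against 18.4%. These were the animals low for interferon genes. The list level of the markers was 7.93, 8.55, 8.47, 8.31, 7.86 and 8.24, and 5 of 16 had a 2-fold range, against 3.19% of all genes. Clec4f, a lectin particular to Kupffer cells, read 9.34, 10.31, 10.28, 10.06, 9.27 and 9.93. Cd5l, a secreted macrophage protein, read 8.04, 9.48, 9.54, 9.10, 8.38 and 8.98, and the complement subunit C1qa and the surface receptor Adgre1 were likewise lowest in animals 1 and 5. In animal 1, 3 of the 16 were above their mean: Cd14, the endotoxin co-receptor, was highest there with 9.87, lysozyme (Lyz2), the widest of the list with an SD of 0.65, read 10.31, 9.57, 10.11, 10.01, 8.65 and 10.40, and the mannose receptor Mrc1 had an SD of 0.09. In bulk tissue, fewer cells of a type and less RNA per cell cannot be told apart. The median r of the 16 markers was 0.75 in vehicle and 0.48 in dosed animals. The part of the immune cell content in the interferon values was not tested.

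Of 26 lymphocyte markers, 15 lay below the median probe set, and the list level spanned 4.25 to 4.63 with animals 1 and 5 lowest. The chemokine Ccl5 read 6.13, 7.34, 7.21, 7.11, 5.94 and 7.51, and Ptprc, the pan-leukocyte antigen CD45, read 5.30, 6.31, 6.28, 5.99, 5.42 and 6.15. Cd4 had an SD of 0.05 at a mean of 4.87. The level of the 20 endothelial markers spanned 6.93 to 7.03, with 6.98 and 7.01 in animals 1 and 5, and their median r was 0.0086.

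**Figure D3:**
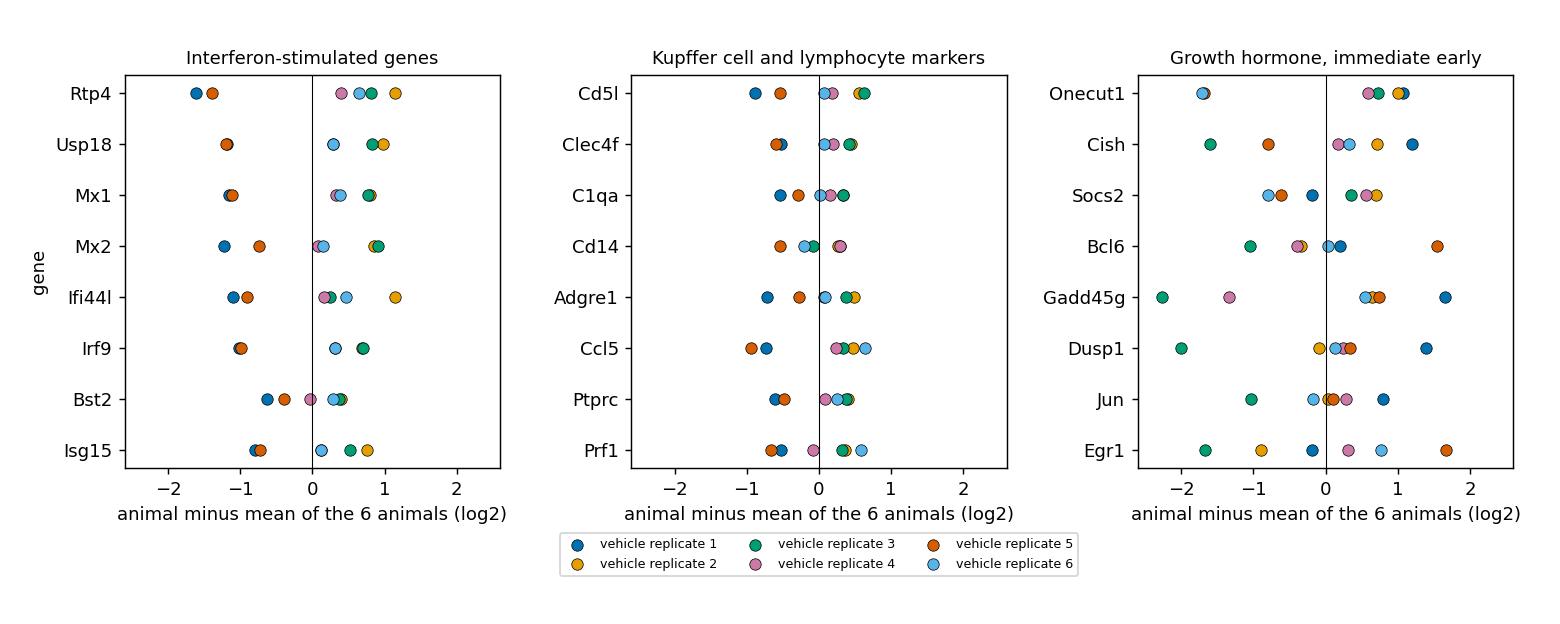
Points show each vehicle animal's log2 signal minus the mean of the 6 animals for 8 genes in each panel: interferon-stimulated genes, Kupffer cell and lymphocyte markers, and growth hormone and immediate early genes. In the first panel animals 1 and 5 lie below 0 for every gene shown, in the second they do for every gene but Cd14, and in the third the order of animals differs between genes.

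Cholesterol synthesis was the metabolic programme with the highest correlation among its members. The pathway makes cholesterol from acetyl-CoA under the control of SREBP2, which becomes active when sterols are low. The list level was 9.83, 9.62, 9.71, 9.45, 9.29 and 9.62. Animal 1 was the highest in 15 of the 20 measured genes, against 27.0% of all genes, and animal 5 the lowest in 15, against 18.4%, so these animals, both low for interferon genes, lay at opposite ends here. The median r was 0.70 in vehicle (Spearman 0.60), 0.66 without animal 1, and 0.78 in the dosed animals.

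Dhcr7, which makes the last step to cholesterol, read 10.35, 9.84, 9.85, 9.86, 9.16 and 9.97, and Idi1, which interconverts the isoprenoid building blocks, spanned 10.08 in animal 5 to 10.96 in animal 1. Insig1, a feedback regulator of the pathway, had the largest SD of the list, 0.43, and did not follow it: it was highest in animal 3 with 10.68 and lowest in animal 4 with 9.50. A 2-fold range was found for 3 of the 20 genes of the list, against 3.19% of all genes. The letters TCACNCCAC, a sterol regulatory element, were in 0 of the 16 promoters in the table and in 1.11% of all measured ones, which says only that these letters are not in those windows.

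Ribosomal protein genes moved together within a narrow range. Their list level was 10.99, 10.95, 10.93, 10.97, 11.14 and 11.05, and animal 5 was the highest in 37 of 41, against 19.6% of all genes. A 2-fold range was found for 0 of the 41, where 3.19% of all genes had one. The median r was 0.79 in vehicle and 0.71 in the dosed animals, and 0.50 without animal 5. Heat shock genes were also highest in animal 5, in 17 of 27, without a 2-fold range in any.

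Genes of the stress factor ATF4, which drives serine and asparagine synthesis when amino acids are short, were highest in animal 5 as well. It was the highest in 18 of 30 genes, against 19.6% of all genes, and 9 had a 2-fold range, against 3.19%. Fgf21, a hormone of fasting and amino acid shortage, read 7.54, 6.43, 6.95, 7.36, 8.73 and 6.57. Asparagine synthetase Asns spanned 6.01 to 7.66, and Psat1 and Phgdh, enzymes of serine synthesis, were highest in animal 5 with 7.61 and 8.68. Trib3 ran against this, at 8.18 in animal 3 and lowest in animal 5 with 6.68. The list's median r was 0.44 in vehicle, 0.59 without animal 1, and 0.11 in the dosed animals.

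Animal 5 was also the highest in 35 of 56 genes of the cell cycle and in 11 of 19 stellate cell and fibroblast markers, against the same 19.6% of all genes. Cyclin B2 (Ccnb2) read 5.82, 5.86, 4.76, 5.41, 6.55 and 5.08, and the kinase-associated phosphatase Cdkn3 spanned 3.87 in animal 6 to 6.90 in animal 5. Of the 56 genes, 27 lay below the median probe set. The collagen chain Col1a2 read 7.82, 7.24, 7.26, 7.93, 8.53 and 7.17, the small proteoglycan Lum spanned 3.86 to 7.46, and Tagln, a smooth muscle cytoskeletal protein, spanned 5.33 to 7.42. Dpt, a matrix protein of the capsule list, was at 9.69 in animal 1 and at 11.18 in animal 5, and the level of the 11 markers of mesothelium and capsule was highest in animal 5 too, with 7.19 against 6.59 to 6.86. The part that capsule or vessel tissue in the sampled piece has in these genes was not tested. The median r was 0.42 for the cell cycle list and 0.43 for the stellate list, and 0.27 and 0.29 in the dosed animals.

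Immediate early genes, which are induced within minutes by growth factors and stress, were wide without moving as 1 list. Of 31, 12 had a 2-fold range, against 3.19% of all genes. The median r of the list was 0.16 in vehicle and 0.04 in dosed animals. The phosphatase Dusp1, which switches off MAP kinases, read 10.78, 9.30, 7.39, 9.64, 9.73 and 9.52. Jun read 9.06, 8.30, 7.24, 8.55, 8.38 and 8.10, Ier2 spanned 7.37 to 9.01 and Dusp6 7.05 to 9.01, and in all 4 animal 3 was the lowest. Fos was dim and flat, with 4.25 to 4.42.

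Genes that growth hormone pulses set in the male rat liver ranged from wide to steady. Of 30, 7 had a 2-fold range (3.19% of all genes had one), and the median r was 0.0054. Onecut1, Cish and the receptor signalling inhibitor Socs2, which spanned 6.62 to 8.13, are direct targets, and Bcl6, a repressor that pulses lower, was at 8.37 in animal 5 and at 5.79 to 7.03 in the others. The pheromone carrier Obp3 was at 10.84 in animal 5 and at 12.13 to 12.78 in the others. Igf1, the circulating growth factor made by hepatocytes, spanned only 12.75 to 12.99.

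Promoters of 2 wide genes are shown in the same form. Each was chosen for holding the element marked and for belonging to a cluster described below, so that the matches were given by the choice. In Cish (chr8:116850719-116850968, plus strand), capitals mark 4 matches to TTCNNNGAA, the element that STAT5 binds downstream of the growth hormone receptor. In Dusp1 (chr10:17184603-17184852, plus strand), capitals mark 1 match to TGACGTCA, the cyclic AMP response element bound by CREB.
Cish: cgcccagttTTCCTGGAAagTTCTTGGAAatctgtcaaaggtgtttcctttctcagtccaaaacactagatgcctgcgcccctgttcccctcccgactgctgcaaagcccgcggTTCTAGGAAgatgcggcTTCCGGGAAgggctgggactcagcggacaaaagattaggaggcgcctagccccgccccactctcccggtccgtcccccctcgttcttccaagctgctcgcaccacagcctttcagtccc
Dusp1: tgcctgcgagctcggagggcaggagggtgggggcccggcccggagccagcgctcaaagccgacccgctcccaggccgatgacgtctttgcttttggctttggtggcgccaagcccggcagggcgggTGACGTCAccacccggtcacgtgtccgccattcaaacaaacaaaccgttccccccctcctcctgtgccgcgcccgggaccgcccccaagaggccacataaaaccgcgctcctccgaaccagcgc

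At least 1 match to the first element was found in 2 of the 23 growth hormone genes with a promoter in the table (8.7%), in 1 of the 9 genes of the cluster that holds Cish, and in 6.99% of measured genes with a promoter in the table, and to the second in 2.85%, both strands searched. The first can share letters with the interferon element.

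**Figure D4:**
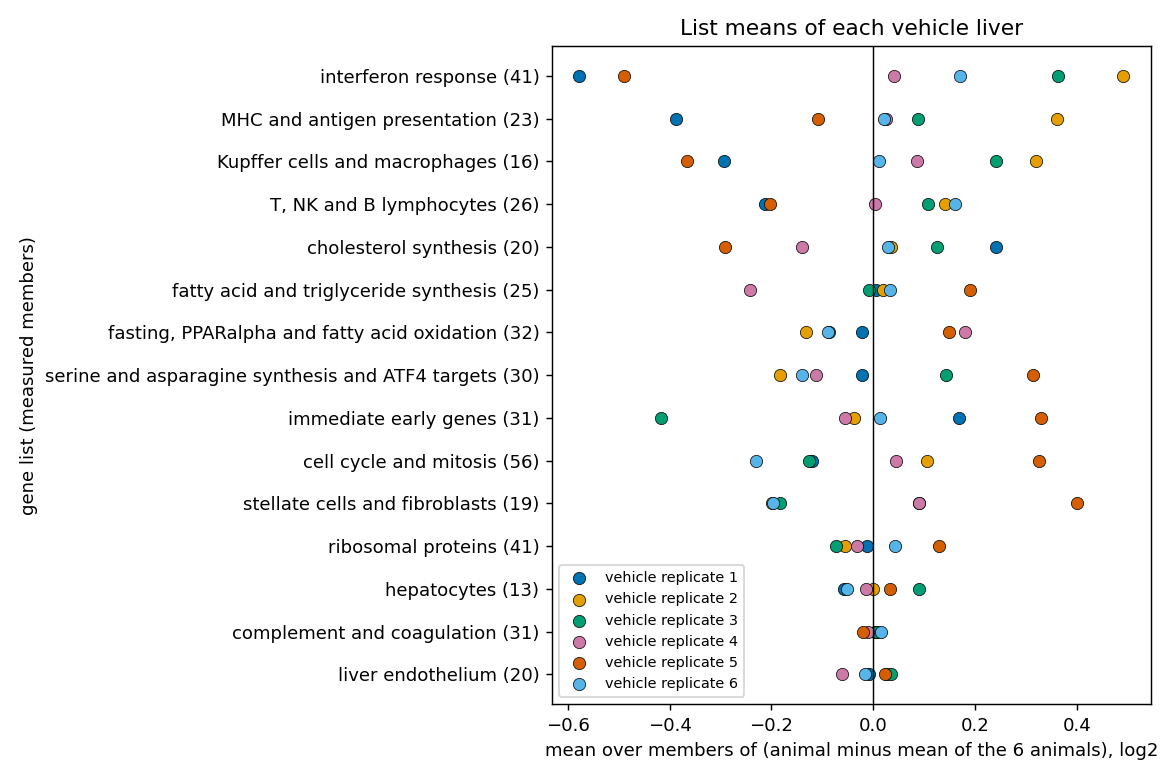
Each point is 1 vehicle animal's mean log2 deviation from the 6-animal mean, averaged over the measured genes of a list (y axis), coloured by replicate number. Of the lists shown the interferon list is the widest, from -0.58 in animal 1 to 0.49 in animal 2, and cholesterol synthesis runs from -0.29 in animal 5 to 0.24 in animal 1.

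Sets of genes that vary together were also read without lists. The 300 genes with the largest SD at or above the median probe set (the last one inside had an SD of 0.3946 and the next one outside 0.3944) were grouped by the correlation of their 6 values. They formed 13 clusters of at least 8 genes, which held 223 of the 300. High correlation within a cluster over the vehicle animals follows from the grouping, so each cluster was read again in the 30 dosed animals, where the median r over all pairs of the 300 was -0.0069.

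The largest cluster, 72 genes led by Ms4a6a, Rtp4, Slc15a4, Usp18 and Ptprc, joined interferon genes with Kupffer cell and lymphocyte genes. Its median r in the dosed animals was 0.69, between 0.37 and 0.83 in single dose groups, and 83.6% of its pairs were positive. The interferon element was in 27 of its 56 promoters in the table (48.2%), against 7.19% of measured genes with a promoter there. The second cluster of strongly correlated genes in the dosed animals held Dusp1, Dusp6, Csrnp1, Ccnl1, Jun, Gadd45g, Ier2 and Rgs3 among its 13 genes. Its median r there was 0.69, and 100% of its pairs were positive. Animal 3 lay 1.11 below the mean of this cluster and animal 1 lay 0.68 above it. Of its 9 promoters in the table, 3 held the cyclic AMP element (33.3%), against 2.85% of measured genes with a promoter there.

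The other 11 clusters were looser in the dosed animals, with median r between 0.09 and 0.41. The 9 genes led by the transcription factor Foxa2, Net1 and Prcp, which include Cish, had 0.41, and the 9 led by Rhpn2, Enc1, Egr1 and the fatty acid desaturase Scd had 0.38. The 8 genes led by Cidea, Onecut1 and Socs2 had 0.31. A cluster of 35 genes led by Aoc3, Col1a2 and Tpm2, highest in animal 5 by 0.91, had 0.19, and the 13 genes led by Tsku, the glycogen regulator Ppp1r3b and Cyp7a1 had 0.19. The 8 genes led by Gpt, Dhrs7l1, Lyz2 and Cdh17, which lay 1.33 below the mean in animal 5, had 0.18.

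**Figure D5:**
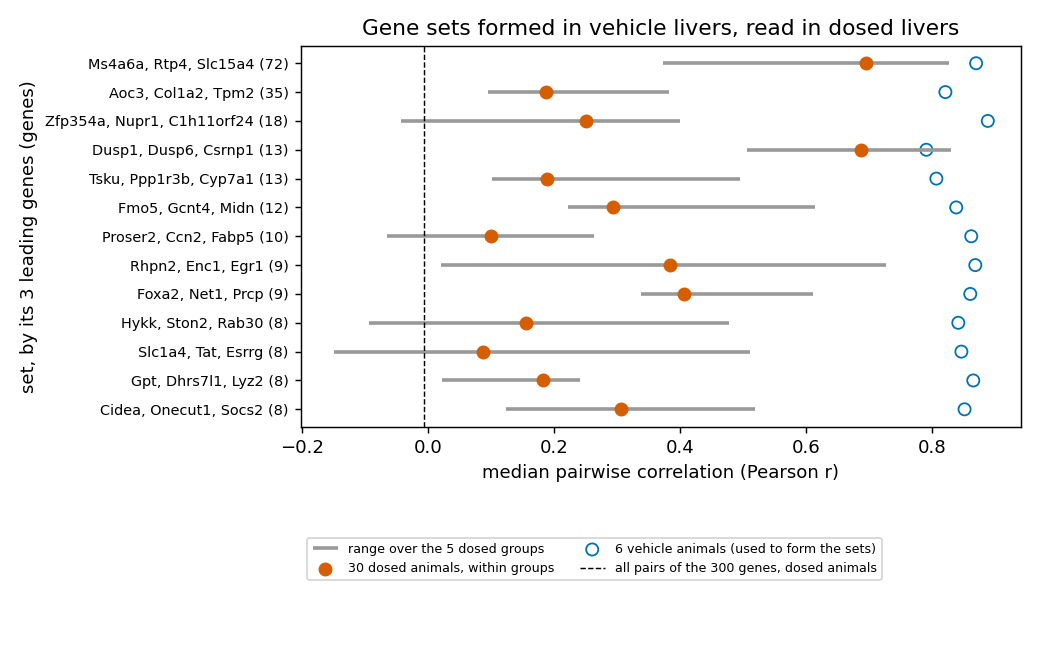
For each of the 13 clusters of genes, points give the median Pearson r over all pairs of members in the 6 vehicle animals, where the clusters were defined, and in the 30 dosed animals as deviations from their group means. Grey lines span the 5 dose groups and the dashed line marks all pairs of the 300 genes in the dosed animals. The 2 clusters that stay high are the 72-gene set led by Ms4a6a and Rtp4 and the 13-gene set led by Dusp1, each at 0.69 in the dosed animals, and the other 11 lie at 0.41 or less.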

How the data were processed

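The authors deposited log2 expression values per probe set, made with RMA (affy), as the submitters' processing notes state; no source used here gives versions. RMA normalized all 36 arrays together, which can narrow the spread between animals. Here the 57 control probe sets were left out, and of 31042 others 20826 name 1 gene, 436 several and 9780 none in the probe table. Each of 14217 genes is read by 1 probe set, the brightest of those naming that gene alone (mean of all 36 arrays).

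SD, range and Pearson correlation were computed over the 6 vehicle animals (Python 3.11.15, pandas 2.3.3, scipy 1.17.1). Absolute deviations from group means, scaled for group size, were compared between vehicle and the mean of the 5 dosed groups on all 31042 probe sets with limma 3.58.1 in R 4.3.3, two-sided, with Benjamini-Hochberg adjustment at 0.05. On simulated data with true differences this test made more false calls than its threshold allows. Clusters came from average linkage on 1 minus r up to 0.3, and correlations were read again in the 30 dosed animals. The widest and the clustered genes were taken at or above the median probe set, and the steadiest from the upper 25% of probe sets.

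The 43 gene lists (1009 of 1201 genes measured) and the members described were chosen with earlier results of these data known. Named genes are the 30 brightest, 25 widest and 12 steadiest, up to 4 brightest and 4 widest and the steadiest of each list, genes with a gap of 1 log2, up to 8 leading genes per cluster, the 5 smallest p values in each direction of the spread test, all reference genes and all serum enzymes. Symbols were checked against RefSeq (20758 probe sets matched). The number of arrays limits the precision. Alternatives were other deviations, filters, normalizations and models, and leaving out each animal. Dose comparisons were left out.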

Additional observations from a re-analysis of the deposited data

Results flagged for a closer look

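In these genes and lists 1 of the 6 vehicle animals lay far from the others, as the gap to its nearest neighbour divided by the whole range was above Dixon's 95% critical value for 6 samples. Chance gives about 1 in 20 such cases. Over all genes 7.38% were over it, and 10 of the 132 genes described in this text and 3 of 43 lists were. The genes described thus had about the share of all genes. Genes named by rule but not described in this text were not checked. Animal 1 was the far one for Ephx2 (ratio 0.838) and for Igfbp1 (0.740). Animal 5 was the far one for Ccn2 (0.755), for the bright hepatocyte genes Cyp2c11 (0.730) and Cyp3a2 (0.657), for Obp3 (0.668) and for Dhrs7l1 (0.688), a dehydrogenase at 11.93 to 12.36 in the other 5 animals. Animal 3 was low for Dusp6 (0.644) and animal 2 for Ifit1 (0.747). Gc (0.898) had a ratio this large within a range of 13.86 to 13.90, animal 6 being the highest.

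Of the lists, gluconeogenesis, glycolysis and glycogen was highest in animal 5, at 8.50 against 8.33 to 8.39 (0.655). The urea cycle and amino acid catabolism list was lowest in animal 5, at 10.35 against 10.47 to 10.52 (0.729). Erythroid cell markers were lowest in animal 4, at 5.14 against 5.30 to 5.38 (0.685).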

How the results depend on the processing

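A 2-fold range was found for 830 of 31042 probe sets when all were counted, and for 356 of the 9572 genes at or above the median probe set. Other settings with all animals gave 450 to 464 of the 14217 genes. Leaving out each animal gave 327 to 417 genes and a median SD of 0.119 to 0.135. The 14 probe sets of the spread test became 3 with deviations from the group median, 8 in the upper 50% of probe sets, 74 with a variance trend and robust estimation, 9 without moderation, 24 after quantile normalization again, 4 with 1 probe set per gene, and 11 to 88 without 1 animal (11 without animal 1, 82, 67, 88 and 53 without animals 2, 3, 4 and 6). With the replicate number as a block 15 were called. The numbers do not pair the animals: same-numbered animals had a median r of 0.0026 over 90 pairs. In the dosed animals the median r within lists was 0.738 for interferon response, 0.110 for ATF4 targets, 0.267 for the cell cycle and 0.479 for Kupffer cells. Leaving out each animal moved it over 0.804 to 0.865 for interferon response, 0.403 to 0.587 for ATF4 targets, 0.557 to 0.728 for antigen presentation and 0.504 to 0.867 for ribosomal proteins. For the 8 lists with alternatives, other settings, Spearman correlation and centring on array medians included, left the correlations within their spread. Of the 25 widest genes, 14 remained with the median absolute deviation, and 19 to 24 without 1 animal. Leaving out 1 animal lowered the SD by over 1.5 times for 53 of the 132 genes described in this text. The cause was not tested. In these 8 lists no correlation changed sign, and lists with r near 0, such as the clock genes, did under Spearman correlation or in the dosed animals. With 6 animals, spreads and correlations are imprecise, and dim probe sets are limited by background.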

Other observations

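Lipid and glucose genes held further wide members beside steady ones. Of 25 measured genes of fatty acid and triglyceride synthesis, 8 had a 2-fold range, against 3.19% of all genes. The median r of this list was 0.16 in vehicle and 0.20 in the dosed animals. The desaturase Scd read 9.70, 9.70, 8.95, 9.77, 11.48 and 10.30 in animals 1 to 6, and Thrsp, a regulator of lipogenesis, spanned 9.43 in animal 4 to 11.24 in animal 5. Elovl5, an elongase, had an SD of 0.06 in its brightest probe set, but 0.29 in another with a mean of 9.37. Of 32 genes of fasting, PPARalpha and fatty acid oxidation, 5 had a 2-fold range, among them Pdk4, which spares glucose, with 7.86 in animal 5 and 8.63 to 9.48 in the others. Igfbp1, an insulin-repressed binding protein, was at 8.45 in animal 1 and at 9.61 to 10.01 in the others, while the gluconeogenic enzyme Pck1 spanned 12.28 to 12.99.

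Among 28 bile acid genes, 4 had a 2-fold range, against 3.19% of all genes. They included Cyp7a1 and the nuclear receptor Nr0b2 (SHP), which represses it. Nr0b2 was at 9.06 in animal 5 and at 7.24 to 8.01 in the others, whereas the uptake transporter Slc10a1 had an SD of 0.05. Among 22 clock genes, 3 had a 2-fold range, and their median r was -0.03. Bhlhe40, a repressor of the clock, was at 8.38 in animal 1 and at 6.75 to 7.45 in the others, and Tef had an SD of 0.05. The chemokine Cxcl1 read 5.22 and 5.32 in animals 5 and 6 and 3.74 to 4.22 in the others, with a mean below the median probe set.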
